A study of Schizosaccharomyces pombe with 6 samples.

Results

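The 37 genes described here encode nucleoporins and proteins of the nuclear envelope of the fission yeast *Schizosaccharomyces pombe*. They are the 20 counted genes named *nup* followed by digits and 17 further genes taken by name, out of 6291 genes with counts. RNA-Seq was performed on cultures of 1 strain, *nup211-so*. In it P81nmt, a form of the *nmt1* promoter that thiamine represses, lies before the *nup211* coding sequence, together with a *ura4+* marker. The study describes this both as an insertion and as a replacement of the native promoter. The strain is of mating type h+ and also carries *ade6-M210*, *leu1-32* and *ura4-D18*. The 3 cultures without thiamine were grown in Edinburgh minimal medium with adenine and leucine. The 3 cultures with 30 μM (10 μg/mL) thiamine were grown in it for 24 hours, washed, and grown for another 24 hours in fresh thiamine medium. Both groups therefore share these alleles, and *nup211* was under P81nmt in both. Cultures of a strain with the native *nup211* promoter were not analysed here, so lower Nup211 and thiamine itself cannot be told apart.

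The nuclear pore complex is a ring-shaped channel in the nuclear envelope through which proteins and RNA pass. An outer ring (the Y-complex) and an inner ring form its scaffold, membrane nucleoporins anchor it, and nucleoporins with phenylalanine-glycine repeats fill the channel. A basket of filaments reaches into the nucleus, and other filaments reach into the cytoplasm. Nup211 is the basket protein that corresponds to vertebrate TPR, and Alm1 is its relative in the same basket. The inner nuclear membrane around the pores holds LEM-domain proteins that bind chromatin, and SUN and KASH proteins join across the envelope at the spindle pole body. Because this yeast divides with its envelope largely closed, most of these membranes and pores are kept through mitosis.

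Total counts per library were 37195197 to 48815139. Ribosomal RNA genes held 41.2% to 48.98% of them without thiamine, and 46.3%, 28.7% and 24.6% in thiamine replicates 1 to 3. Levels are given as CPM, which are counts divided by the TMM-normalized library size and scaled to 1000000. A gene is called where edgeR's quasi-likelihood test gave a Benjamini-Hochberg adjusted p under 0.05 over 5434 tested genes, and fold changes are thiamine against no thiamine. Of those genes 69.8% were called, 34.5% as higher and 35.3% as lower with thiamine, and their median log2 fold change was -0.01. The marker *ura4* fell by 1.75 on the log2 scale (adjusted p = 1.6e-06). The thiamine-repressed gene *nmt1* had 1631 to 2061 counts per library without thiamine and 0 to 3 with it. Of 7 genes of sexual development, 1 was higher, 3 were lower, 2 were not called and *meu14* was not tested. The log2 fold change was 1.66 for *ste11*, -2.89 for *mei2*, -1.56 for *mam2* and -0.83 for *map3*. The summed level of the 7 genes was 168 to 201 CPM without and 187 to 212 CPM with thiamine, a sum in which these opposite changes offset each other.

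All 37 genes passed edgeR's filter on low counts. With thiamine 14 were higher, 7 were lower and 16 were not called, so 56.8% were called against the background of 69.8%. Higher calls made up 37.8% of the genes and lower calls 18.9%, against 34.5% and 35.3% of all tested genes. In 25 of the 37 the CPM of the groups did not overlap (67.6%, against 75.5% of tested genes). Large changes were few. Only 5 of the 37 were called, had groups that did not overlap and changed by at least 1 on the log2 scale (13.5%, against 29.8% of tested genes). These were *ima1*, *nup124*, *lem2* and *nup189*, which rose, and *ish1*, which fell. The median log2 fold change of the 37 was 0.17. For the 28 nucleoporins alone it was 0.07, with 9 higher, 6 lower and 13 not called. In cultures, fewer cells with a transcript and less transcript per cell cannot be told apart.

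**Figure D1:**
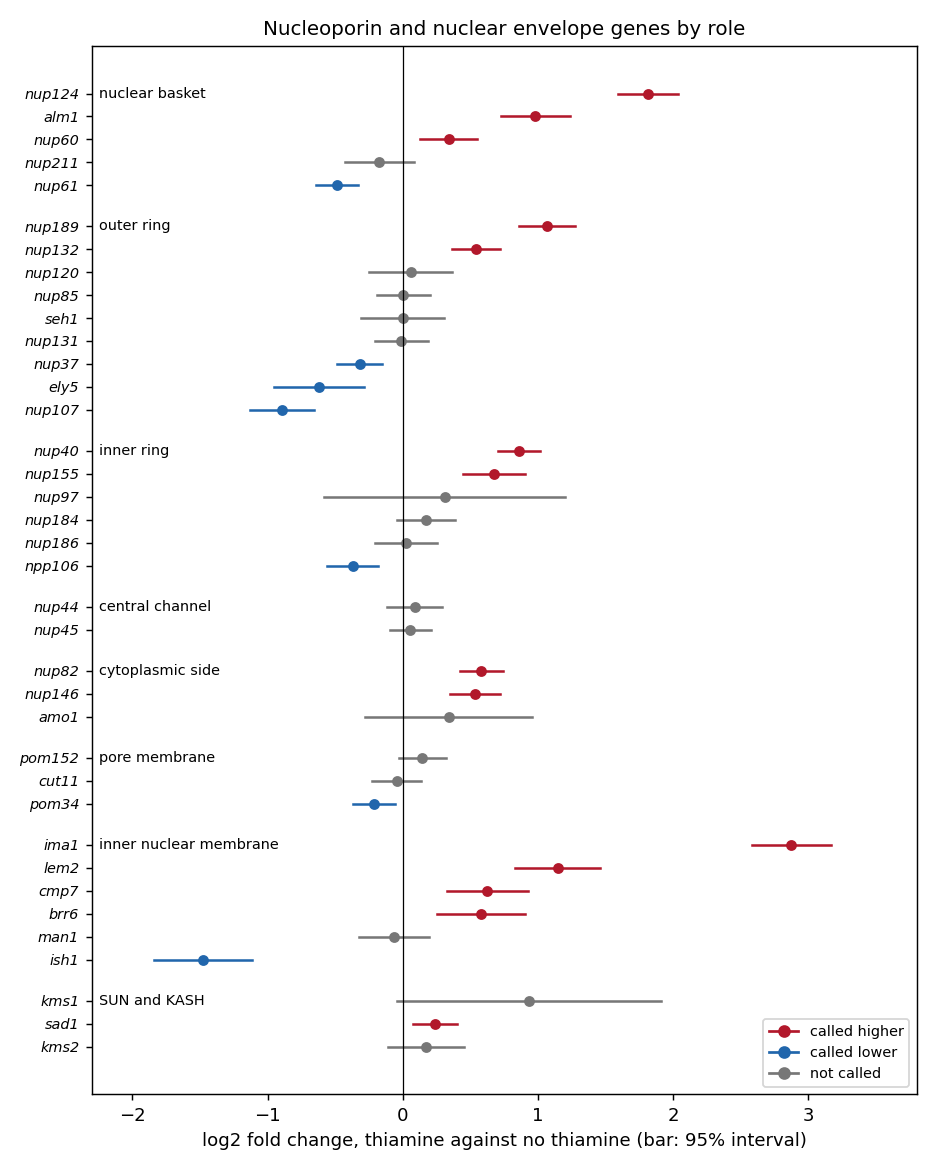
Log2 fold change of each of the 37 genes (x axis, thiamine against no thiamine, 3 libraries a group) with its 95% interval from edgeR, grouped by role and coloured by call. Values run from -1.48 for *ish1* to 2.87 for *ima1*, and each scaffold ring holds genes on both sides of 0.

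Counts were low for 3 genes that another gene covers over most of their length. *nup97* and *amo1* are overlapped over their whole length by a gene on the other strand, and *kms1* over 87.6%. The highest mean count of these 3 was 42.3 per library, whereas the 33 genes overlapped under 50% had mean counts of at least 398. *nup211*, covered over 87.0%, had 473 to 655 counts per library. No gene of the 37 had a stretch of at least 95% identity over 100 bp elsewhere in the genome (0 of 37). The genes are long, with a median transcript of 2867 bp against 1759.5 bp for tested genes, and their median GC content of 37.3% was near the 37.1% of tested genes.

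*nup211* (SPCC162.08c) is overlapped over 87.0% of its span (chromosome III, 1565520 to 1571250, plus strand, 1 exon) by *nup211-antisense-1*. This non-coding gene covers 4984 bp and had 0 to 4 counts per library itself. Both coding ends of *nup211* lie outside it, and they hold the parts of the open reading frame that no other counted gene covers. The whole of the 5′ part and the last 150 bases of the 3′ part are printed from the ASM294v3 reference, plus strand, with the start and the stop codon in capitals. P81nmt lies before the first of them in *nup211-so*.
*nup211* 5′ coding end, chrIII:1565642-1565773: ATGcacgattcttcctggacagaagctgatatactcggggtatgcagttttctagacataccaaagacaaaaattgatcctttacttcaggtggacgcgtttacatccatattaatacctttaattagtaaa
*nup211* 3′ coding end, chrIII:1571006-1571155: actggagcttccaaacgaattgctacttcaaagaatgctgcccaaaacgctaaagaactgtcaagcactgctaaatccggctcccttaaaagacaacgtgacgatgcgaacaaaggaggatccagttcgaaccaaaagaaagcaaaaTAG

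The *nup211* level was 12.4, 15.4 and 13.7 CPM in the libraries without thiamine and 13.2, 11.5 and 12.1 CPM with thiamine. These values overlap, with the highest and the lowest level in different groups. The log2 fold change was -0.17 (95% interval -0.43 to 0.08, adjusted p = 0.199). Its sign and call changed with the scaling and with gene length. It was 0.40 with library totals (adjusted p = 0.0851), -0.47 with upper-quartile scaling (adjusted p = 0.00686) and -0.67 with the trend in gene length removed (adjusted p = 0.000741). Across every alternative the adjusted p lay between 0.000741 and 0.536. The value with the length trend removed uses the full length of *nup211*, which does not apply if the counts come from the free ends. The libraries are therefore named by their label, as thiamine libraries, and not by a measured fall of the *nup211* transcript. At the protein level, the paper reports a significant reduction of Nup211 by Western blotting in *nup211-so* cells grown with thiamine. Endogenous Nup211 went undetected in another of its blots with thiamine, though the paper does not exclude residual protein. The counts used here do not measure protein.

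*alm1* (SPAC1486.04c, chromosome I, 3191447 to 3196943, minus strand, 1 exon) was higher with thiamine. Its level was 33.2, 35.4 and 32.0 CPM without and 63.3, 58.5 and 76.9 CPM with thiamine. The groups were apart, with every thiamine library above every other. The log2 fold change was 0.98 (SE 0.11, adjusted p = 6.96e-05), and it was 0.49 with the length trend removed, where the call held. A ratio of 2 genes within a library needs no scaling between libraries, and it was computed for 5 pairs. Each library had 2.30 to 2.68 counts of *alm1* for 1 of *nup211* without thiamine, and 4.79 to 6.34 with it. These ratios did not overlap either (two-sided exact permutation p = 0.1, the smallest that 3 against 3 libraries allow).

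Of the 5 basket genes 3 were higher (*alm1*, *nup124* and *nup60*), *nup61* was lower and *nup211* was not called. *nup124* (SPAC30D11.04c, chromosome I, 1112170 to 1115868, plus strand) encodes a basket nucleoporin with phenylalanine-glycine repeats, needed in this yeast for nuclear import of the Tf1 retrotransposon. Its level was 116, 117 and 109.6 CPM without thiamine and 376, 396 and 435 CPM with it. The lowest thiamine library was thus far above the highest library without thiamine, and the level rose 3.52-fold (log2 fold change 1.82, SE 0.10, adjusted p = 1.36e-06). *nup60*, which encodes another basket protein, rose from 171 ± 1.57 to 216 ± 19.1 CPM (SD, n = 3 in each group; log2 fold change 0.34). Under upper-quartile scaling this became 0.04 and was not called. *nup61*, the counterpart of vertebrate NUP50, fell from 118 ± 0.985 to 84.4 ± 0.196 CPM (SD, n = 3 in each group; log2 fold change -0.49), with groups that did not overlap. With library totals *nup61* had 0.10 and was not called, while all tested genes then had a median of 0.57.

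**Figure D2:**
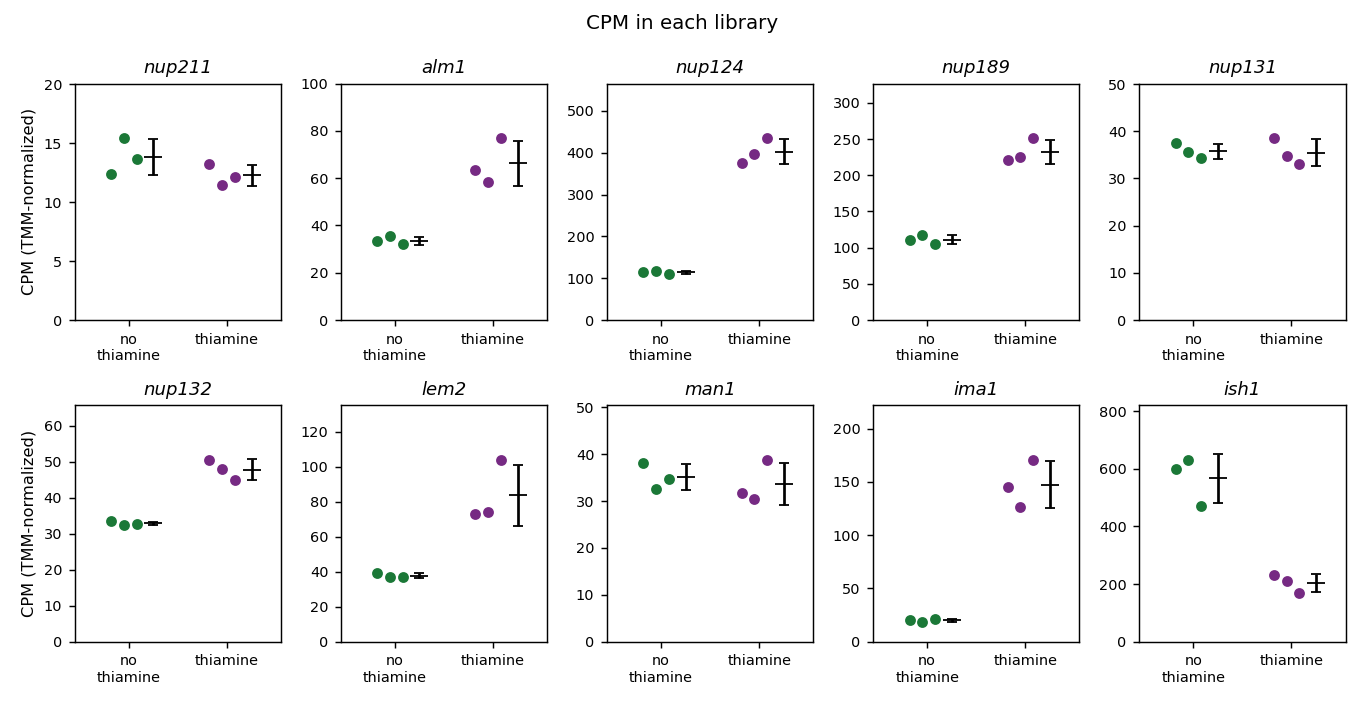
CPM (y axis, TMM-normalized counts scaled to a library size of 1000000) in each library of 10 genes, without thiamine (green) and with thiamine (purple), with the mean and SD (n = 3) beside the points. *nup124*, *nup189*, *nup132*, *alm1*, *lem2* and *ima1* are higher in every thiamine library, *ish1* is lower in every one, and *nup211*, *nup131* and *man1* overlap.

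Among the 9 outer ring genes 2 were higher, 3 were lower and 4 were not called, with a median log2 fold change of 0.00. *nup189* (SPAC1486.05, chromosome I, 3196998 to 3202450, plus strand, 1 exon) encodes the precursor that is cut into the counterparts of NUP98 and NUP96. Its level was 110.1, 117 and 105 CPM without thiamine and 221, 225 and 251 CPM with it, with no overlap. The log2 fold change was 1.07 (SE 0.09, adjusted p = 1.29e-05). *nup107*, which encodes the partner of Nup96 in the stem of the Y, was lower. It went from 42.1 ± 1.66 to 22.6 ± 2.87 CPM (SD, n = 3 in each group; log2 fold change -0.90, adjusted p = 7.77e-05). Genes for 2 smaller Y-complex subunits, *ely5* and *nup37*, were lower as well, with log2 fold changes of -0.62 and -0.32. *ely5* is overlapped over 47.6% of its length. The 4 genes not called were *nup120*, *nup85*, *nup131* and *seh1*, whose log2 fold changes lay between -0.01 and 0.06.

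*nup131* and *nup132* both encode counterparts of vertebrate NUP133. *nup131* (SPBP35G2.06c, chromosome II, 973022 to 976901, minus strand, 5 exons) had 37.4, 35.6 and 34.3 CPM without and 38.5, 34.8 and 33.1 CPM with thiamine. Its groups overlapped fully (log2 fold change -0.01, 95% interval -0.21 to 0.18, adjusted p = 0.908). *nup132* (SPAC1805.04, chromosome I, 2775128 to 2781053, plus strand, 2 exons) had 33.4, 32.4 and 32.7 CPM without and 50.5, 48.0 and 44.8 CPM with thiamine. Its groups were apart (log2 fold change 0.54, SE 0.08, adjusted p = 0.000273). The count ratio of *nup132* to *nup131* was 0.893 to 0.954 without and 1.31 to 1.38 with thiamine. These ratios did not overlap (two-sided exact permutation p = 0.1, the smallest possible). The order of the raw counts was opposite in the groups, but the order of levels rests on the length used. Per kb of deposited transcript *nup131* was above *nup132* in both groups (9.60 against 5.60 CPM without, 9.53 against 8.15 with thiamine). Per kb that no other counted gene covers, the order was opposite (9.22 against 8.35 without, 9.14 against 12.1 with thiamine). The deposited *nup132* transcript is 5862 bp long, since it starts 5′ of the RefSeq start at 2777288. With the length trend removed its fold change was 0.04, and the call was lost.

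*alm1* and *nup189* are neighbours transcribed away from each other, and both rose. The 21 bases that lie outside both the deposited and the RefSeq span of each gene are printed to show how close the pair is, plus strand, with none in capitals. They run from the deposited start of *alm1* to the RefSeq start of *nup189*.
*alm1* to *nup189*, chrI:3196944-3196964: agcagtgcactattcggacct
Their log2 fold changes were 0.98 and 1.07. Another pair of neighbours, *ely5* and *pom152*, overlaps by 12 bp at their annotated starts. In it *ely5* fell, and *pom152* was not called (log2 fold change 0.14, adjusted p = 0.121).

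Of the 6 inner ring genes 2 were higher, 1 was lower and 3 were not called, with a median log2 fold change of 0.24. *nup40*, the counterpart of NUP35, which binds the pore membrane, rose from 60.8 ± 1.15 to 110.2 ± 2.36 CPM (SD, n = 3 in each group; log2 fold change 0.86, adjusted p = 9.33e-06). *nup155*, the counterpart of NUP155, had a log2 fold change of 0.68 and groups that did not overlap. The large scaffold genes *nup184* and *nup186*, counterparts of NUP188 and NUP205, were not called, with 0.17 and 0.03. *nup97* and *npp106* are both counterparts of NUP93. *npp106* (SPCC1739.14, chromosome III, 2059889 to 2063334, plus strand) had 45.0, 41.8 and 47.1 CPM without and 36.5, 33.0 and 34.0 CPM with thiamine. It was lower with thiamine in every library (log2 fold change -0.37, SE 0.08, adjusted p = 0.00337). With library totals the value was 0.21 and was not called. *nup97* (SPCC1620.11, chromosome III, 2165020 to 2168871, plus strand) had 8, 16 and 15 counts without and 25, 15 and 26 counts with thiamine. The count ratio of *npp106* to *nup97* was 100 to 216 without and 70.5 to 106 with thiamine, with overlap (two-sided exact permutation p = 0.2). At these counts no difference was detectable for *nup97* (log2 fold change 0.31, 95% interval -0.58 to 1.20, adjusted p = 0.499). The gene on the other strand that covers it, SPCC1620.12c, rose by 0.58.

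Of the 2 channel genes and the 3 pore membrane genes, 1 was called, and on the cytoplasmic side 2 of 3 rose. *nup44* and *nup45*, whose products carry the repeats of the channel, had log2 fold changes of 0.09 and 0.06 and were not called. *nup82* and *nup146*, which encode a cytoplasmic pair corresponding to NUP88 and NUP214, had 0.58 and 0.53 (adjusted p = 9.96e-05 and 0.000414). For *nup146* the value was 0.015 with the length and GC trends removed, and the call was lost. *amo1*, the third gene of that side, had 27 to 63 counts per library and was not called. In the pore membrane *pom34* was lower by a small amount (log2 fold change -0.21, adjusted p = 0.022). *pom152* and *cut11*, the counterpart of NDC1, were not called. The call of *pom34* was lost without any 1 of the libraries other than thiamine replicate 3, with values of -0.23 to -0.20, and its sign turned with library totals (0.37). *nup44* and *pom152* were called without thiamine replicate 3, with 0.15 and 0.16.

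The largest changes in both directions were in the inner nuclear membrane, where 4 of 6 genes were higher, 1 was lower and 1 was not called. *ima1* (SPCC737.03c, chromosome III, 1888103 to 1891959, minus strand, 1 exon) encodes a membrane protein, the counterpart of vertebrate Samp1, that binds near heterochromatin. Its level was 20.3, 18.3 and 21.7 CPM without and 145, 126 and 171 CPM with thiamine. The thiamine libraries were all several times above the others, a rise of 7.33-fold (log2 fold change 2.87, SE 0.13, adjusted p = 5.59e-07). Of all tested genes 98.4% had a lower fold change than *ima1*. The deposited span of *ima1* reaches past its RefSeq end at 1890864 and overlaps the divergent gene SPCC737.04 over 632 bp. SPCC737.04 rose from 21.3 ± 1.20 to 1858 ± 482 CPM (SD, n = 3 in each group), a log2 fold change of 6.44. Its part in the value of *ima1* was not tested.

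*ish1* (SPBC365.12c, chromosome II, 2516125 to 2518792, minus strand, 1 exon) encodes a stress-responsive protein of the nuclear envelope. Its level was 598, 631 and 471 CPM without and 231, 210.1 and 169 CPM with thiamine. Every thiamine library was below every library without thiamine (log2 fold change -1.48, SE 0.16, adjusted p = 4.81e-05). The lowest level of each group was in its replicate 3. Among the 37 genes *ish1* was the only one called lower under each of the 5 scalings tried.

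*lem2* and *man1* encode the pair of LEM-domain proteins of this yeast, which tether chromatin to the envelope. *lem2* (SPAC18G6.10, chromosome I, 2234262 to 2236773, plus strand, 1 exon) had 39.4, 36.8 and 37.3 CPM without and 72.9, 74.4 and 104 CPM with thiamine. The groups were apart, and thiamine replicate 3 was the highest (log2 fold change 1.15, SE 0.14, adjusted p = 9.77e-05). Without that library the value was 0.95. *man1* (SPAC14C4.05c, chromosome I, 5235156 to 5238388, minus strand, 1 exon) had 38.2, 32.6 and 34.7 CPM without and 31.7, 30.4 and 38.8 CPM with thiamine. Its groups overlapped (log2 fold change -0.07, 95% interval -0.32 to 0.19, adjusted p = 0.622), and without thiamine replicate 3 it was called with -0.19. The pair had nearly equal counts without thiamine, 1.03 to 1.13 of *lem2* for 1 of *man1*, and 2.30 to 2.68 with it (two-sided exact permutation p = 0.1, the smallest possible). The 3′ neighbour of *lem2*, *rrn3*, overlaps it by 62 bp and rose by 2.55, and its part in the value of *lem2* was not tested.

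**Figure D3:**
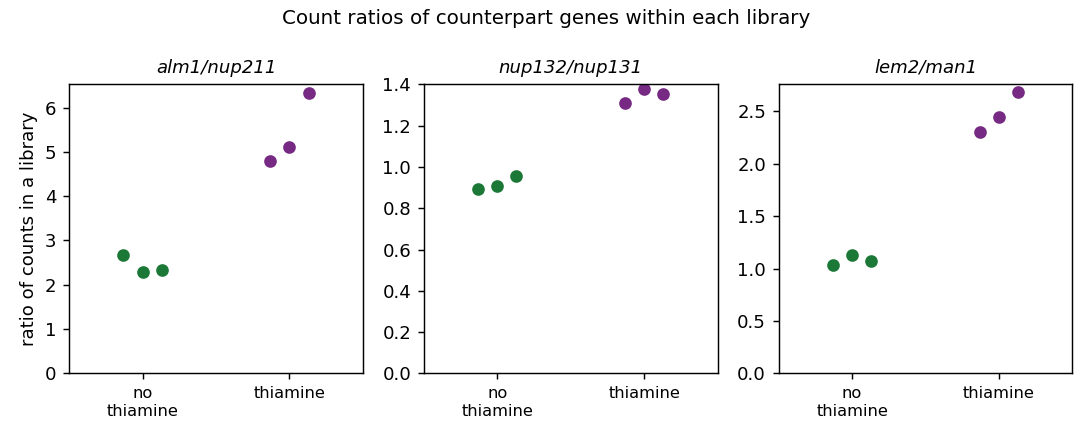
Ratio of the counts of 2 related genes within each library (y axis, linear, from 0), 3 points a group. The ratios of *alm1* to *nup211* (2.30 to 2.68 against 4.79 to 6.34), *nup132* to *nup131* (0.893 to 0.954 against 1.31 to 1.38) and *lem2* to *man1* (1.03 to 1.13 against 2.30 to 2.68) are higher in every thiamine library.

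The other genes of this membrane encode proteins that remodel it. *cmp7*, the counterpart of CHMP7, brings the ESCRT-III machinery to the envelope and acts there with Lem2. It rose from 12.9 ± 1.98 to 19.8 ± 1.97 CPM (SD, n = 3 in each group; log2 fold change 0.63, adjusted p = 0.00247). *brr6*, needed for opening and closing the envelope around the spindle pole body, had 10.1 ± 0.768 and 15.1 ± 2.69 CPM (SD, n = 3 in each group; log2 fold change 0.58, adjusted p = 0.00588). Upper-quartile scaling left 0.29 for *brr6* and ended its call.

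Of the SUN and KASH genes only *sad1* was called. *sad1* encodes the SUN protein of the spindle pole body and rose slightly, from 43.3 ± 0.857 to 51.1 ± 1.94 CPM (SD, n = 3 in each group; log2 fold change 0.24, adjusted p = 0.0156). Its value was -0.057 with upper-quartile scaling and -0.055 with the length and GC trends removed, without a call, and the call was also lost without control replicate 2 or 3 (0.23 each) or thiamine replicate 1 (0.23). *kms2* (SPBC947.12, chromosome II, 646936 to 649028) encodes a KASH partner and had 20.8, 16.7 and 18.5 CPM without and 18.7, 20.4 and 24.0 CPM with thiamine, with overlap (log2 fold change 0.17, adjusted p = 0.236). *kms1* (SPAC3A11.05c, chromosome I, 3462282 to 3465427) encodes the KASH protein that acts with Sad1 in meiosis. It had 23, 30 and 6 counts without and 48, 52 and 51 with thiamine, a log2 fold change of 0.93 that was not called (95% interval -0.04 to 1.91, adjusted p = 0.0792). Without control replicate 2 it was called, with 1.35. The count ratio of *kms2* to *kms1* was 21.2 to 106 without and 18.9 to 25.4 with thiamine, with overlap (two-sided exact permutation p = 0.2). The gene *sei1* on the other strand overlaps 2756 bp of *kms1* and had 428 to 629 counts per library.

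Under at least 1 of the 5 scalings tried the sign turned for 18 of the 37 genes, among them 5 of the 21 called genes. Over the tested genes the median log2 fold change, -0.01 with TMM, moved to 0.57 with library totals and to -0.31 with upper-quartile scaling. The median of the 37 genes stood 0.18 above that of all tested genes under each of these 3. These scalings multiply whole libraries and shift all genes by about the same amount, so this distance could hardly differ between them. That distance was 0.10 with the length trend removed and 0.025 with the length and GC trends removed. Of the 14 genes called higher, 11 were called so under all 5 scalings, and 8 of these also with the length trend and with the length and GC trends removed. These 8 were *alm1*, *nup124*, *nup189*, *nup40*, *nup82*, *lem2*, *ima1* and *cmp7*. Of the 7 called lower, *ish1* alone passed both conditions. The share of all tested genes that turned sign or passed these conditions is not given here. These counts therefore describe the 37 genes and do not set them apart from other genes. Over all tested genes lower calls also fell, from 1917 with TMM to 588 with library totals, while higher calls went from 1877 to 2724. *nup61*, *nup37*, *npp106* and *pom34* changed sign with library totals, as *sad1* did with upper-quartile scaling. *nup107* and *ely5* kept their sign and lost their call with library totals. Leaving out each library in turn kept the calls of 13 of the 14 and 6 of the 7, with *sad1* and *pom34* as the exceptions.

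**Figure D4:**
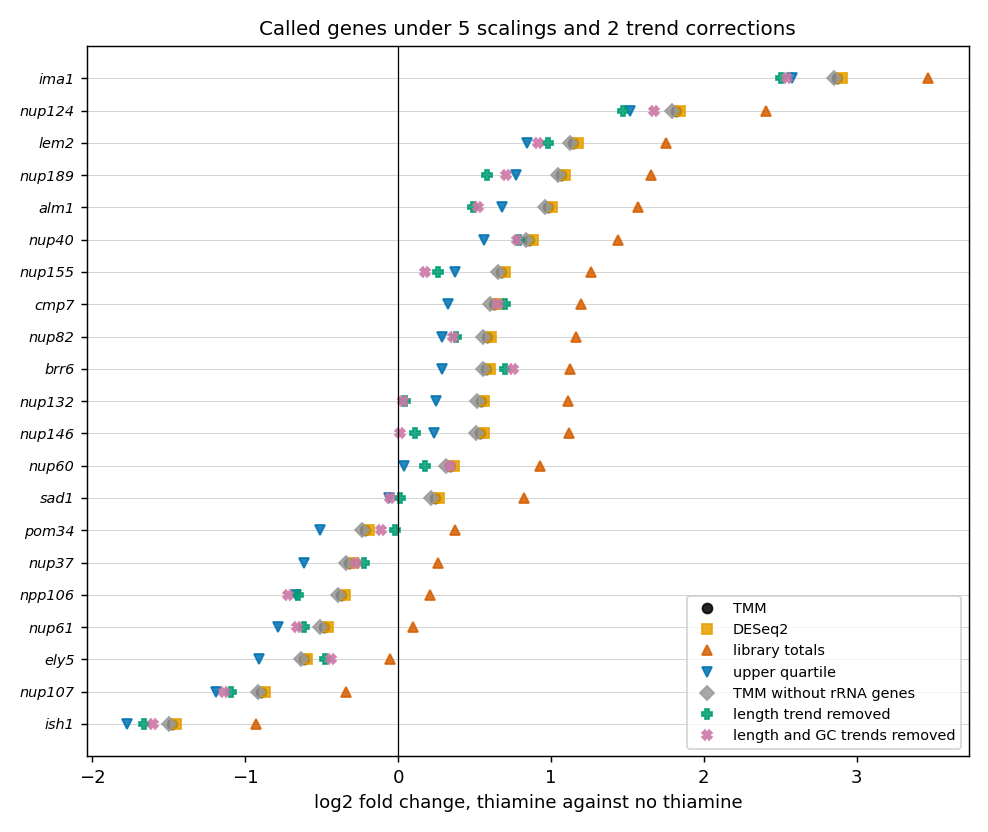
Log2 fold change (x axis, thiamine against no thiamine) of the 21 called genes under 5 scalings and with 2 trend corrections (symbols). *ima1*, *nup124* and *lem2* stay at 0.85 or higher and *ish1* at -0.93 or lower under every symbol, while *sad1*, *nup61*, *nup37*, *npp106* and *pom34* have symbols on both sides of 0.

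Levels between genes are compared per kb of the deposited gene span that no other counted gene covers, for the 34 genes other than *nup97*, *amo1* and *kms1*. Without thiamine the level of *ish1* was the highest, 288 ± 42.9 CPM per kb (SD, n = 3), followed by *nup60* with 68.1 ± 0.626. *nup120* was the lowest with 4.67 ± 0.24, and the lengths used for *nup211* are its free ends only. On this scale *nup211* ranked 14 of 34 with 18.5 ± 2.02 CPM per kb, and *alm1* ranked 33 with 6.11 ± 0.316. Over its whole transcript *nup211* had 2.42 ± 0.263 CPM per kb, against 2.96 for *nup120*, so its place in this order rests on the length used. *nup124* had a mean of 30.9 CPM per kb without and 109 with thiamine, where *ish1* went from 288 to 103. The order of the means of this pair was thus opposite in the groups. With thiamine these means were close and the order differed between libraries. There *ish1* was above *nup124* in thiamine replicate 1 and below it in thiamine replicate 3.

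**Figure D5:**
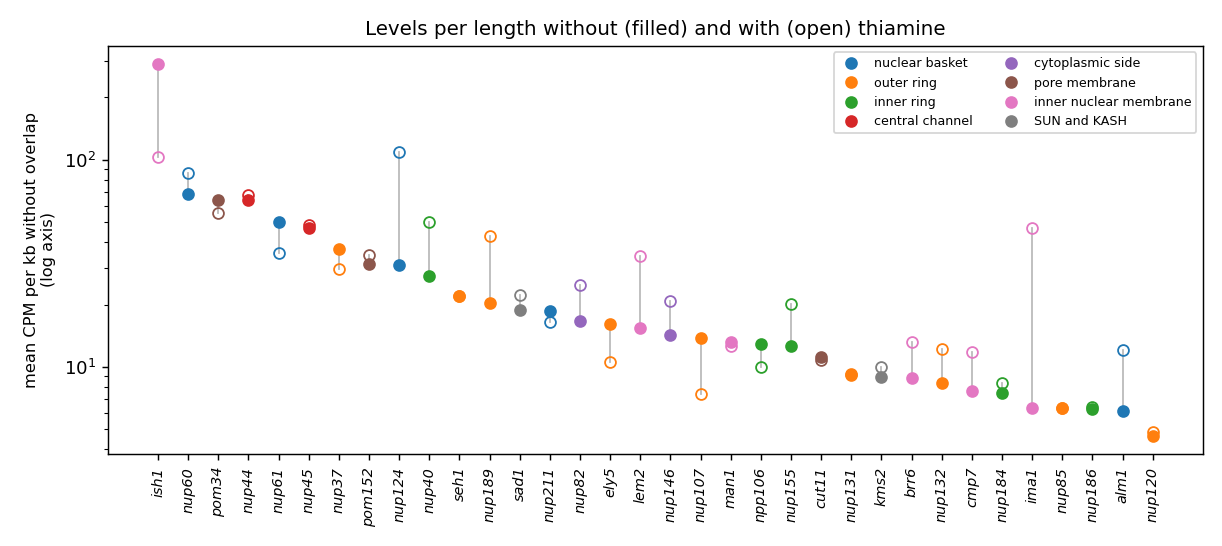
Mean CPM per kb of uncovered gene span (y axis, log scale) of 34 genes without thiamine (filled) and with thiamine (open), ordered by the level without thiamine and coloured by role. *ish1* has the highest level without thiamine (288) and *nup120* the lowest (4.67). With thiamine *nup124* has the highest mean (109), close to that of *ish1* (103).

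The 250 bases before the RefSeq start of each of the 37 genes were searched on both strands for 3 short motifs, of which ACGCGT reads the same on both strands. TGACGT, a core of the site bound by factors of the Atf1 type, was present before *pom152* and *ish1*, and in 5.54% of 5038 promoters. ACGCGT, the core of the MCB element of genes expressed at the start of S phase, was present before *nup120* and *pom34*, and in 2.66% of promoters. GTAAACA, the forkhead motif, was present before 5 genes (*nup37*, *nup97*, *pom152*, *sad1* and *kms2*) and in 14.6% of promoters. *ima1*, *nup124*, *lem2* and *nup189* held none of the 3 in that window. For *ima1* the window (1890865 to 1891114) lies inside the deposited span, which reaches 1891959, so sequence before the deposited start was not searched. The windows of *kms1*, *nup132*, *nup186* and *seh1* also lie inside their deposited spans. For *nup211* the window is the native reference sequence, whereas P81nmt lies before its coding sequence in both groups.

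Other genes of the pore and envelope were examined as a list of 18 from general knowledge, of which 17 were tested (*bqt1* had too few counts). Of these 7 were higher, 4 were lower and 6 were not called, with a median log2 fold change of 0.20. Thus 11 of 17 were called, where 69.8% of all tested genes were, 34.5% as higher and 35.3% as lower. *mto1*, whose product nucleates microtubules and also resides at pores, had the largest rise, from 8.13 to 24.2 CPM (log2 fold change 1.57). *ulp1*, the SUMO protease held at the basket, rose by 1.37, and *nsp1*, the channel partner of Nup44 and Nup45, rose by 1.02. *nem1*, which encodes a phosphatase that activates the lipin Ned1, rose by 0.76, and *ned1* itself rose by 0.75. *spo7* (SPAC6G9.04), taken into the list by its name, rose by 0.81. *les1*, which acts at the envelope in closed mitosis, rose by 0.41. Among the genes that were lower, *sec13*, shared by the Y-complex and the COPII coat, fell by 1.00, and *bqt4*, which anchors telomeres to the envelope, fell by 0.57. *rae1*, an mRNA export factor, and *tts1*, a membrane-shaping protein, each fell by 0.26. *nsp1*, *ulp1*, *mto1*, *nem1*, *spo7* and *ned1* were called under all 5 scalings and both trend corrections. None of the 4 lower genes was called lower under all of them. With library totals, lower calls over all tested genes fell as well, from 1917 to 588.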

How the data were processed

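The study's 6 polyA-selected libraries come from a stranded kit. For 6291 genes the authors deposited raw read counts, without normalization. The submitters' processing notes name STAR and DESeq2, and the counting program, its strand setting, the genome build and versions are not given in the sources used here. Deposited columns of the authors' DESeq2 comparison were not used, apart from gene names, positions and transcript lengths. Positions overlapped those of RefSeq on ASM294v3 for 6232 of 6233 genes. All per-sample columns were used.

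Counts were tested with edgeR 4.0.16 (glmQLFit with robust dispersion, glmQLFTest, TMM, filterByExpr) in R 4.3.3, with Benjamini-Hochberg adjustment over 5434 genes. Alternatives were DESeq2 1.42.0, library totals, upper-quartile scaling, TMM without ribosomal RNA genes, no filter, each library left out, a replicate block, loess removal (span 0.5) of length and GC trends, and genes overlapped by at least 50% left out. The fit was tested on simulated data. The labels call the replicates biological, no 2 libraries were the same, and same-numbered libraries were not treated as pairs. Motif and blastn 2.17.0 searches used ASM294v3. Genes named with every library's value are *nup211*, *alm1*, pairs that share a counterpart, and called genes with separate groups and a change of at least 1 on the log2 scale. Others are given by role, with counts, range and examples of large and small change. Members, lists and tests were chosen with earlier results of these data known, and the count ratios after the values were seen.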

Additional observations from a re-analysis of the deposited data

How the results depend on the processing

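Counts of the 37 genes called higher and lower were 14 and 7, and 27 and 1 with library totals, where calls of all genes as lower went from 1917 to 588. Lower calls were 14 with upper-quartile scaling, 12 with the length trend removed and 12 with the length and GC trends removed. The median log2 fold change of the 37 genes (0.17) was 0.75 with library totals, -0.13 with upper-quartile scaling, 0.043 and -0.019 with the length trend and both trends removed, and 0.13 without genes overlapped by at least 50%. Leaving out 1 library gave medians of 0.12 to 0.17, 13 to 16 higher and 6 to 8 lower calls, and 2 to 5 lower calls in the list of 18 (4 with all libraries, 2 without control replicate 2). With library totals edgeR called 0 of that list lower (0 also at an unadjusted p under 0.05), and DESeq2 called 5.

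*nup211* was called lower with upper-quartile scaling (-0.47), with the length trend removed (-0.67) and with both trends removed (-0.62), and was not called with each library left out (-0.25 to -0.09). Among genes called with TMM or under the alternative, signs turned with library totals for *nup61* (0.10), *nup131* (0.55), *nup37* (0.26), *seh1* (0.56), *npp106* (0.21), *pom34* (0.37), *cut11* (0.53) and *man1* (0.53). With upper-quartile scaling they turned for *nup85* (-0.29), *nup186* (-0.27), *nup45* (-0.24) and *sad1* (-0.057). With the length trend removed they turned for *nup184* (-0.30), *nup186* (-0.46) and *pom152* (-0.23), and with both trends removed for *nup184* (-0.22), *nup186* (-0.42) and *sad1* (-0.055). Of genes called in neither fit, 1 turned with library totals (*nup211*, 0.40), 5 with upper-quartile scaling, 4 with the length trend removed and 4 with both trends removed. The cause was not tested.

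Same-numbered libraries of the groups did not deviate together (r of -0.0049, 0.086 and -0.028). With a replicate block 14 genes were higher and 7 lower, and *nup211* had -0.17. With the replicate block and both trends removed, 10 were higher and 10 lower, the median was -0.031, *nup211* was called (-0.62), and *nup186* (-0.42) and *sad1* (-0.055) turned sign, as did 5 genes called in neither fit. The block alone changed no call among the 37. *nup97*, *amo1* and *kms1* had only 6 to 63 counts per library, which limited what could be detected for them.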
